A study of Mus musculus with 8 samples.

Results

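The genes described here are 34 genes of the lysosome: 11 hydrolases, 2 proteins that help hydrolases, 4 proteins of the lysosomal membrane, 2 transcription factors, and 15 genes of the vacuolar proton pump. They were taken by symbol from a deposited table of RNA-seq counts, and all 34 were found among its 55414 genes. The table covers macrophages from mouse skin wounds, and the question put to it here was how these genes, and the hydrolases against the pump, compared between day 1 and day 3 after injury. Each library came from 6 wounds of 3 mice, pooled, and cells were selected with beads against F4/80, a macrophage surface protein. There were 3 libraries from day 1 (a to c) and 5 from day 3 (a to e). Per the labels' protocol, 6 such pools were prepared at each time, and those beyond the 8 used were not analysed here. The labels name no treatment besides the wound, and strain, sex and age are not given in the sources used here. Whether pools had mice in common is not stated there, and the p-values cover pool-to-pool spread alone.

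The lysosome is the acidic compartment in which cells break down what they take up and what they recycle. Its hydrolases are made as precursors, reach it mostly by a mannose 6-phosphate tag, and work at low pH. The pH is set by the vacuolar ATPase, a rotary pump in which the cytosolic V1 sector splits ATP and the membrane V0 sector carries protons. TFEB and TFE3 are transcription factors that bind the sequence CACGTG and its longer forms near many lysosomal genes. Macrophages are rich in lysosomes, and in a wound they digest dead cells and debris.

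Total counts were between 41566151 and 60289310 per library, and every one of the 34 genes passed the filter on low counts. The number of genes with any count differed more, at 26530, 27315 and 23928 in day 1 a to c. It was 20557 in day 3 a and 14952 to 15359 in day 3 b to e. The effect of this difference on the comparison of the days was not tested. The lowest single count of any of them was 50, for Tfeb. Summed macrophage markers (11 genes) lay between 17910 and 20596 CPM (normalised counts scaled to a common library size) at day 1 and between 29484 and 36489 at day 3. Of these, 4 were higher and 1 was lower at an unadjusted p under 0.05 (45.45% in all, against 15.7% of all genes tested). Lyz2 made up most of the difference in the sum. Lyz2 and Fcgr1 missed the main edgeR test and passed it under the stricter filter described below (adjusted p = 0.0207, higher, and 0.033, lower). The sum of 6 inflammatory monocyte markers was 2788 to 3807 CPM at day 1 and 1354 to 2155 at day 3. Of the 6, 5 had a log2 fold change below 0, and 4 (66.7%) were lower at an unadjusted p under 0.05. Chil3 was called lower at day 3 in the main edgeR test (-2.85 ± 0.30, adjusted p = 0.0267, and 0.00408 to 0.141 with 1 library left out), and Ly6c2 under the stricter filter (adjusted p = 0.0263). Fibroblast markers summed to 9.59 to 37.7 CPM and 56.0 to 119 CPM. All 6 tested had a log2 fold change above 0, and 3 (50%) were higher at an unadjusted p under 0.05. Of those 3, Col1a1 passed under the stricter filter (edgeR, adjusted p = 0.0263). Neutrophil markers overlapped between the days, at 843 to 3777 and 428 to 3632 CPM, and were highest in day 1 c and day 3 b. Outside day 3 b, all day 3 sums lay below all day 1 sums. All 10 neutrophil markers tested had a log2 fold change below 0 (median -0.97), and 1 (10%) was lower at an unadjusted p under 0.05. Dendritic cell markers, led by Ccr7 and Xcr1, summed to 74.9 to 185 CPM at day 1 and 22.6 to 133 at day 3. Endothelial markers, led by Pecam1 and Kdr, summed to 31.2 to 76.1 and 17.3 to 30.0 CPM. T and NK cell markers (Nkg7, Trbc2) stayed under 10 CPM in sum, and so did keratinocyte markers (Krtdap, Krt14) outside day 3 b, where they summed to 57.9 CPM. The leading genes of the other lists were Lyz2 and Cd68 (macrophage), S100a8 and S100a9 (neutrophil), Chil3 and Plac8 (monocyte), and Dcn and Col1a1 (fibroblast). B cell, plasma cell and mast cell genes were at or near 0: Mcpt4 and Tpsb2 had no count in any library, Cd79a reached at most 0.182 CPM, and Ms4a1, Cpa3 and Cma1 stayed below 1.2 CPM. In bulk samples, fewer cells of a type and less RNA per cell cannot be told apart, and the part of these cell types in the results below was not tested.

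Promoter sequences are shown because TFEB and TFE3, both among the genes described, are known for binding this motif. RefSeq promoter windows of 300 bases (250 before the start and 50 after it, build GRCm38.p6) were at hand for 28 of the 34 genes. Searched on both strands, CACGTG was found in 10 of the 28 (35.7%), against 8.09% of the 27025 genes with a window. The 7-base form, TCACGTG or its reverse complement CACGTGA, was found in the same 10 genes, against 4.29% of all genes. The 8-base palindrome TCACGTGA was found in 5 of the 28 (17.9%), against 1.12% of all genes. Every match to a longer form is also a match to a shorter form. The motif is known near many lysosomal genes, so these shares are background and no result of the counts. The stretches below are 5′ to 3′ on the gene's strand, and capitals mark matches to the 7-base form on either strand, the palindrome being 2 such matches that overlap. They are 2 membrane genes, 2 hydrolases and 2 pump genes.
Lamp1 (chr8:13159084-13159160, plus strand): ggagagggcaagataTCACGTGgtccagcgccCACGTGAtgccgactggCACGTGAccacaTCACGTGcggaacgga
Mcoln1 (chr8:3500432-3500495, plus strand): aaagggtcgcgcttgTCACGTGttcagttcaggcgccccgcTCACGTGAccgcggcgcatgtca
Gla (chrX:134601178-134601248, minus strand): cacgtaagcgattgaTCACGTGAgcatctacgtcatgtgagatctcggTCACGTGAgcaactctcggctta
Glb1 (chr9:114401014-114401050, plus strand): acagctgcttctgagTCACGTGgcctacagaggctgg
Atp6v0b (chr4:117887330-117887381, minus strand): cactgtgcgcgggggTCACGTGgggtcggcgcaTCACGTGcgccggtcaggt
Atp6v1a (chr16:44139369-44139406, minus strand): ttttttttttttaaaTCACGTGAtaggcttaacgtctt
Lamp1 held 4 matches within 62 bases before its start, and Gla held 2 copies of the palindrome. The other genes with the motif were Gaa, Naglu, Atp6v0d1 and Atp6v0e. The median log2 fold change from day 1 to day 3 was -0.15 for the 10 genes with the motif (range -0.86 to 0.40) and -0.006 for the 18 with a window and no match. For the 6 with no window it was 0.11. A match is a string of letters and does not show that a factor binds there.

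None of the 34 genes differed between day 1 and day 3 in the edgeR quasi-likelihood test at an adjusted p under 0.05. Only 2 of all 15371 genes tested did (0.013%), and a count of 0 of 34 is near that background. A p that misses this threshold does not show that a gene was the same at both times. At an unadjusted p under 0.05 there were 8 of the 34 (23.5%), against 15.7% of all genes tested. Hexa, Asah1 and Atp6v0d2 were higher at day 3 in that count, and Glb1, Neu1, Grn, Atp6v0c and Atp6v1h were lower. In 4 of the 34 (11.8%) the day ranges were apart, against 14.1% of all genes. Those 4 were Asah1 and Atp6v1f, higher at day 3 (5.31% of all genes), and Atp6v0c and Atp6v1h, lower at day 3 (8.76% of all genes).

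Other count tests called between 0 and 3 of the 34. DESeq2 called 1021 genes (6.64%) and, of the 34, Asah1 alone (adjusted p = 0.0301). The limma voom test called 825 genes (5.37%) and again Asah1 alone (adjusted p = 0.0395). edgeR without a filter on low counts called 1347 of 38518 genes (3.5%) and Asah1, Grn and Atp6v0d2 (adjusted p = 0.0441, 0.00801 and 0.0401). A stricter filter kept genes with a mean of 5 CPM that reached 1 CPM throughout either day. Under it 146 of 8142 genes were called (1.79%) and none of the 33 members that passed it. Tfeb was left out by it. Over 19 alternatives the adjusted p ran from 0.0301 to 0.525 for Asah1, 0.00801 to 0.52 for Grn and 0.0401 to 0.571 for Atp6v0d2.

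The differences were small for most of the 34, but their intervals were wide. In all, 23 had a log2 fold change (day 3 minus day 1) within 0.5 of 0, against 41.0% of all genes tested. Of the 22 whose average log2 CPM was 8 or more, 19 were within 0.5, against 66.9% of the 623 genes at that level. The 95% interval held 0 in 26 genes and lay within 1 log2 unit of 0 in 23. The narrowest interval of the 34 still spanned 0.66 log2 units. The median log2 fold change of the 34 was -0.055, with 15 above 0 and 19 below, and that of all genes tested was -0.17.

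**Figure D1:**
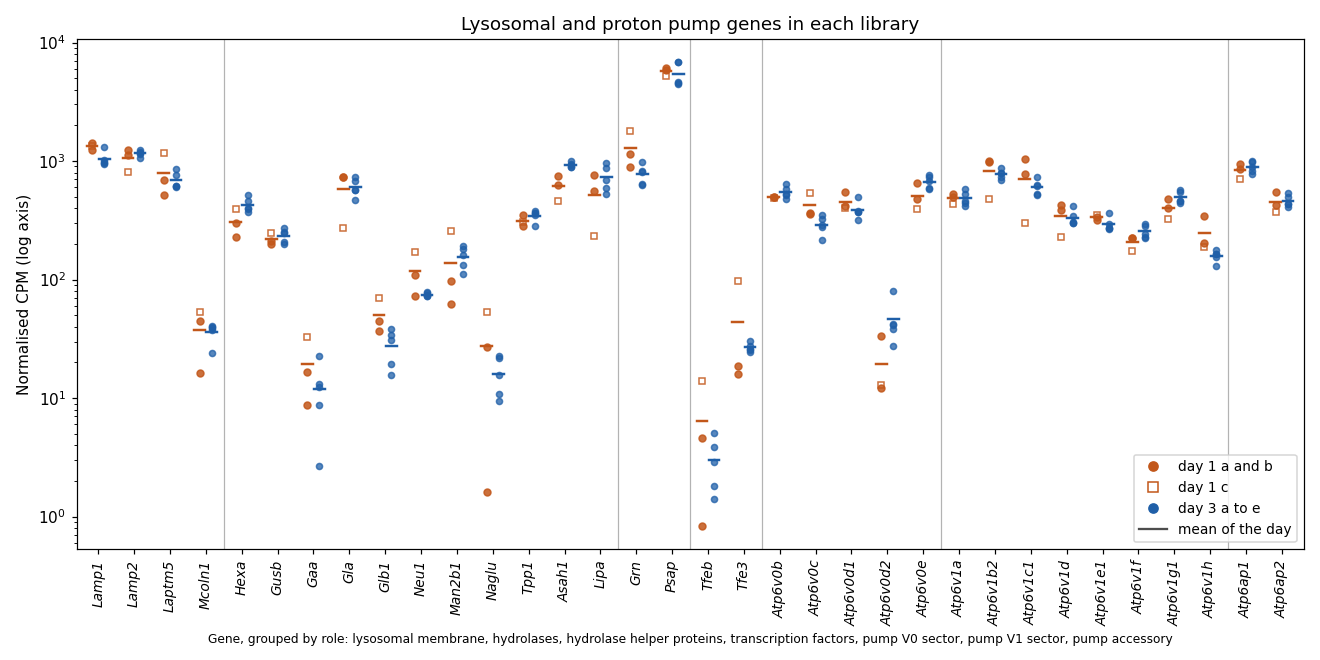
Normalised CPM (log axis) of the 34 genes in each library, grouped by role. Orange marks are day 1 (n = 3, with day 1 c as an open square), blue points day 3 (n = 5), and short lines the mean of each day. Psap is the highest and Tfeb the lowest, and the days overlap in 30 of the 34 genes.

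As a group these genes were abundant. Together they took between 1.77% and 2.18% of all raw counts in each library. Scaled for exon length as RPKM (CPM per kilobase of exon), 23 of the 34 were among the 1000 most abundant genes of those tested. Psap ranked highest of them, at place 29, with 2088 ± 158 and 1995 ± 452 RPKM at day 1 and day 3 (SD, n = 3 and 5, as for all levels below). Lamp1 followed at place 130 with 497 ± 30.9 and 391 ± 59.5 RPKM. Among the pump genes Atp6v1g1 was the most abundant, at place 137 with 355 ± 69.5 and 438 ± 51.4 RPKM, and Atp6v0d2 the least, at place 2687 with 7.18 ± 4.47 and 17.0 ± 7.36 RPKM. Among hydrolases Asah1 was the most abundant, at place 230, and Gaa the least, at place 5958. Tfeb was at place 9809 with 1.14 ± 1.19 and 0.533 ± 0.267 RPKM.

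Of the 4 membrane genes, none passed the test or an unadjusted p under 0.05. Lamp1 (ENSMUSG00000031447; GRCm39 chromosome 8, 13209161 to 13225338), the main glycoprotein of the lysosomal membrane, had values of 1410, 1245 and 1332 CPM in day 1 a to c. In day 3 a to e it was at 935, 969, 976.5, 1020 and 1325 CPM. Day 3 e lay inside the day 1 range, and the other 4 day 3 libraries lay below all of day 1. The log2 fold change was -0.35 ± 0.16 (SE; 95% interval -0.70 to 0.0093; edgeR, adjusted p = 0.333). Unstranded counting leaves out reads on the 9.3% of Lamp1 exon bases shared with Grtp1 on the opposite strand. Lamp2 (chromosome X, 37490234 to 37545331), its close relative that also serves in a form of autophagy, was at 1062 ± 230.2 and 1158 ± 60.9 CPM. The ratio of Lamp2 to Lamp1 RPKM was 0.224, 0.281 and 0.169 in day 1 a to c and 0.342, 0.344, 0.353, 0.293 and 0.246 in day 3 a to e. Only day 3 e lay inside the day 1 range of that ratio. Laptm5, a lysosomal membrane protein of blood cells, had means of 788.5 ± 335 and 691 ± 114 CPM and spread 2.26-fold within day 1. Mcoln1, the lysosomal calcium channel TRPML1, was at 16.3, 44.4 and 52.8 CPM at day 1 and 40.8, 39.2, 23.8, 37.7 and 40.1 CPM at day 3, so day 1 a and day 3 c were low in it.

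The 11 hydrolases ranged from -0.86 (Glb1) to 0.60 (Asah1) in log2 fold change, with 7 above 0 and 4 below. Asah1 (ENSMUSG00000031591; GRCm39 chromosome 8, 41793234 to 41827810) encodes acid ceramidase, which splits ceramide into sphingosine and a fatty acid. Its values were 749.6, 629.6 and 458 CPM in day 1 a to c and 890.2, 920.5, 941.5, 999 and 896 CPM in day 3 a to e. All 5 day 3 libraries lay above all 3 of day 1, and the spread was narrow within day 3. Its log2 fold change was 0.60 ± 0.18 (95% interval 0.21 to 1.00; edgeR, adjusted p = 0.123). It was 0.43 without day 1 c, the lowest library in it.

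Hexa (chromosome 9, 59446823 to 59472392) encodes the alpha subunit of beta-hexosaminidase, which trims gangliosides. It was at 229, 299 and 397 CPM at day 1 and 396, 400.3, 375, 459 and 514 CPM at day 3, and only day 1 c reached the day 3 range. The log2 fold change was 0.48 ± 0.20 (edgeR, adjusted p = 0.298), and it was 0.27 without day 1 a (adjusted p = 0.613) and 0.70 without day 1 c (adjusted p = 0.125). Its exons share 12.8% of their bases with Tmem202 on the opposite strand, from which unstranded reads are left out. Man2b1, the lysosomal alpha-mannosidase, was at 97.3, 61.8 and 255 CPM at day 1 and 112, 134, 162, 182 and 190.5 CPM at day 3. Day 1 c was the highest of all 8 libraries there and the other 2 day 1 libraries were the lowest, so the log2 fold change of 0.18 ± 0.41 became 0.97 without day 1 c (adjusted p = 0.125). Lipa, the acid lipase that frees cholesterol from its esters, was lowest in day 1 c, with 767, 557 and 233 CPM at day 1 and 875, 522, 595, 955 and 691 CPM at day 3. Its log2 fold change was 0.49 ± 0.36 (adjusted p = 0.582), and it was 0.14 without day 1 c.

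Neu1 and Glb1 had lower means at day 3. Neu1 (chromosome 17, 35150229 to 35154929), the sialidase of the lysosome, was at 109, 73.2 and 171 CPM at day 1 and 72.8, 73.7, 76.8, 72.5 and 78.2 CPM at day 3. Day 1 b was as low as the day 3 libraries, whose coefficient of variation was 3.38%. Its log2 fold change was -0.65 ± 0.24 (edgeR, adjusted p = 0.219) and -0.28 without day 1 c. Glb1 (chromosome 9, 114230144 to 114303966), the beta-galactosidase whose activity is used as a stain for senescent cells, had values of 37.0, 44.4 and 69.8 CPM at day 1 and 19.4, 15.6, 38.6, 31.2 and 33.9 CPM at day 3. The ranges overlapped only through day 3 c, and the log2 fold change was -0.86 ± 0.35 (adjusted p = 0.259) and -0.56 without day 1 c (adjusted p = 0.498). Tmppe, on the same strand, covers 5.5% of the exon bases of Glb1.

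The other 5 hydrolases, like Man2b1 and Lipa, had intervals that held 0. Gusb, beta-glucuronidase, was at 219 ± 25.2 and 234 ± 30.2 CPM (log2 fold change 0.094 ± 0.16, 95% interval -0.27 to 0.46). Tpp1, a peptidase that removes tripeptides, was as even, at 314 ± 33.9 and 347 ± 38.9 CPM (0.15 ± 0.16, interval -0.20 to 0.50). Gla, alpha-galactosidase A, was at 734, 733 and 274 CPM at day 1, where day 1 c was the lowest of all 8 libraries, and at 602 ± 104 CPM at day 3. Gaa, which breaks down glycogen, and Naglu, which acts on heparan sulfate, were sparse and spread widely. Gaa was at 16.5, 8.74 and 32.8 CPM and 2.70, 8.82, 12.4, 13.2 and 22.5 CPM, with an interval of -2.12 to 0.72. Naglu was at 1.61, 26.8 and 53.6 CPM and 9.42, 21.7, 10.7, 22.6 and 15.7 CPM, a 33.3-fold spread within day 1 alone.

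The 2 helper proteins are secreted precursors that reach the lysosome. Psap, prosaposin, is cut into the saposins that present lipids to hydrolases, and its values were 5916, 6039 and 5234 CPM in day 1 a to c, against 4616, 4493, 4597, 6839 and 6825 CPM in day 3 a to e. Day 3 d and e lay above all of day 1, and day 3 a, b and c below it. The log2 fold change was -0.066 ± 0.20 (edgeR, adjusted p = 0.921). Grn (ENSMUSG00000034708; GRCm39 chromosome 11, 102321141 to 102327874), progranulin, is cut into granulins in the lysosome and also acts outside the cell. It was at 1156, 886 and 1809 CPM at day 1 and 812, 644, 629, 981 and 822 CPM at day 3, and only day 3 d lay inside the day 1 range. Its log2 fold change was -0.72 ± 0.24 (95% interval -1.27 to -0.18; adjusted p = 0.176) and -0.39 without day 1 c, where it was highest.

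The 2 transcription factors were sparse, Tfeb the most so of the 34. Tfeb was at 4.58, 0.834 and 13.9 CPM at day 1 and 1.82, 3.88, 1.42, 2.89 and 5.11 CPM at day 3, with an interval of -3.09 to 0.90. Tfe3 was at 16.1, 18.7 and 97.3 CPM at day 1 and 24.4, 27.6, 26.0, 30.3 and 25.5 CPM at day 3. Day 1 c held most of the day 1 mean of Tfe3, while day 1 a and b lay below all 5 day 3 libraries. The log2 fold change of Tfe3 therefore ran from -0.72 with all libraries to 0.62 without day 1 c (adjusted p = 0.267), and neither passed.

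Of the 13 Atp6v subunits of the pump, 5 were above 0 in log2 fold change and 8 below, with a median of -0.051. In the V0 sector, Atp6v0d2 (ENSMUSG00000028238; GRCm39 chromosome 4, 19876841 to 19922605) had the largest difference of the 34. It encodes the form of the d subunit that is restricted to osteoclasts, macrophages and few other cells, whereas Atp6v0d1 is made in most cells. Atp6v0d2 stood at 12.2, 33.5 and 12.8 CPM in day 1 a to c and at 41.6, 38.5, 27.7, 80.3 and 42.2 CPM in day 3 a to e. Day 1 b lay inside the day 3 range, and day 3 d was well above the others. The log2 fold change was 1.24 ± 0.45 (95% interval 0.22 to 2.26; edgeR, adjusted p = 0.213). It was 1.89 without day 1 b and 0.94 without day 3 d. Atp6v0d1 was at 455 ± 76.9 and 387 ± 64.6 CPM (-0.23 ± 0.18). Of the summed RPKM of both d genes, Atp6v0d2 made up 1.46%, 5.02% and 2.05% in day 1 a to c and 6.88%, 4.89%, 4.68%, 14.3% and 6.87% in day 3 a to e. Day 1 b again overlapped with day 3.

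Atp6v0c (chromosome 17, 24382840 to 24388676), the proteolipid that forms most of the rotor ring, was at 363, 360.3 and 542 CPM at day 1 and 275, 324, 215.5, 348.5 and 289 CPM at day 3. All 5 day 3 libraries lay below day 1, day 3 d by little, and the log2 fold change was -0.54 ± 0.21 (edgeR, adjusted p = 0.235) and -0.32 without day 1 c (adjusted p = 0.443). The table also lists 2 pseudogenes of it, with 933 and 47 counts over all libraries, so reads shared with near copies may be lost from its value. Atp6v0b, a related ring subunit, was at 495 ± 5.53 and 549 ± 66.5 CPM, its day 1 libraries within 1.02-fold of each other. Atp6v0e, a small V0 subunit, was at 509 ± 129 and 671 ± 81.5 CPM (0.40 ± 0.19, interval -0.034 to 0.83).

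In the V1 sector, 7 of 8 genes were within 0.5 of 0 in log2 fold change. Atp6v1h (ENSMUSG00000033793; GRCm39 chromosome 1, 5140241 to 5232752), a regulatory subunit, was the exception. It was at 345, 203 and 189 CPM at day 1 and 166, 163.5, 131, 156 and 177 CPM at day 3, so all of day 3 lay below all of day 1 and day 1 a stood high. The log2 fold change was -0.63 ± 0.21 (95% interval -1.11 to -0.15; edgeR, adjusted p = 0.177) and -0.33 without day 1 a. Atp6v1a and Atp6v1b2, which form the catalytic head, were at 484 ± 49.9 and 483.5 ± 65.9 CPM and at 821 ± 296 and 777 ± 65.9 CPM. Their intervals were -0.36 to 0.36 and -0.61 to 0.45.

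Atp6v1f, on the central stalk, was at 223, 223 and 173.5 CPM at day 1 and 294.5, 284, 230.5, 240.3 and 223.5 CPM at day 3. The days did not overlap, but day 3 e and day 1 b differed by under 1 CPM (0.30 ± 0.17, adjusted p = 0.437). Atp6v1d, also on that stalk, was at 346 ± 102 and 334 ± 52.3 CPM. Atp6v1e1 and Atp6v1g1, of the outer stalks, were at 335 ± 14.4 and 293 ± 39.8 CPM and at 403 ± 78.9 and 497 ± 58.3 CPM, and Atp6v1g1 had a log2 fold change of 0.30 ± 0.18. Atp6v1c1, which links the outer stalks, was at 1043, 775 and 301 CPM at day 1, where day 1 c was lowest of all, and 602 ± 89.6 CPM at day 3. The accessory genes Atp6ap1 and Atp6ap2, the latter also known as the prorenin receptor, had log2 fold changes of 0.096 ± 0.16 and 0.039 ± 0.17.

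**Figure D2:**
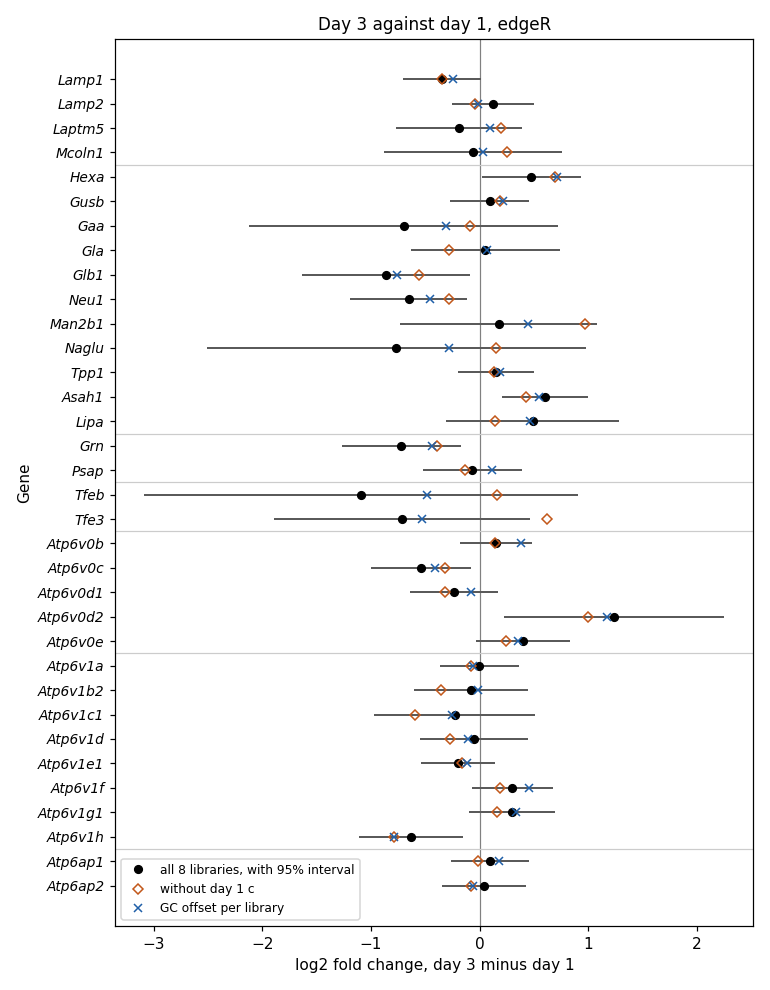
Log2 fold change (day 3 minus day 1) of each gene. Black points are the edgeR values from all 8 libraries with the 95% interval, open diamonds the values without day 1 c, and crosses those with a correction for GC content in each library. The intervals of 26 genes hold 0, and Tfe3, Tfeb, Naglu and Man2b1 move the farthest without day 1 c.

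The hydrolases and the pump were compared within each library as the mean log2(CPM + 0.5) of the 11 hydrolases minus that of the 13 Atp6v subunits. This difference was -1.52, -1.45 and -0.59 in day 1 a, b and c and -1.55, -1.47, -1.06, -1.01 and -0.94 in day 3 a to e. Its means were -1.18 ± 0.52 and -1.20 ± 0.28 (SD, n = 3 and 5), so the days differed by -0.020, far less than the spread between libraries. Day 1 a and b and day 3 a and b lay close together, day 3 c, d and e lay higher, and day 1 c was highest. Leaving out 1 library at a time moved the day difference between -0.19 (without day 1 a) and 0.28 (without day 1 c). The median log2 fold changes were 0.094 for the hydrolases and -0.051 for the pump subunits.

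Sums of RPKM, which weight abundant genes, gave another picture of the same 2 groups. The 11 hydrolases summed to 846, 795 and 694 RPKM in day 1 a to c and to 954, 939.5, 896, 1031 and 962 RPKM in day 3 a to e. All day 3 sums lay above all day 1 sums, as did the values of 5.31% of single genes. The largest rises in mean RPKM were those of Asah1 (180.6 to 274.1) and Hexa (154.4 to 214.8). Gaa, Glb1, Neu1 and Naglu had lower means at day 3. The pump subunits summed to 2018, 1999 and 1554 RPKM at day 1 and to 2058, 2229, 1777, 1821 and 1804 RPKM at day 3, with wide overlap. The ratio of the sums was 0.421 ± 0.024 and 0.498 ± 0.057, and day 3 b (0.422) lay inside the day 1 range of 0.398 to 0.446. These sums are a description of the libraries, and no test was made of them.

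**Figure D3:**
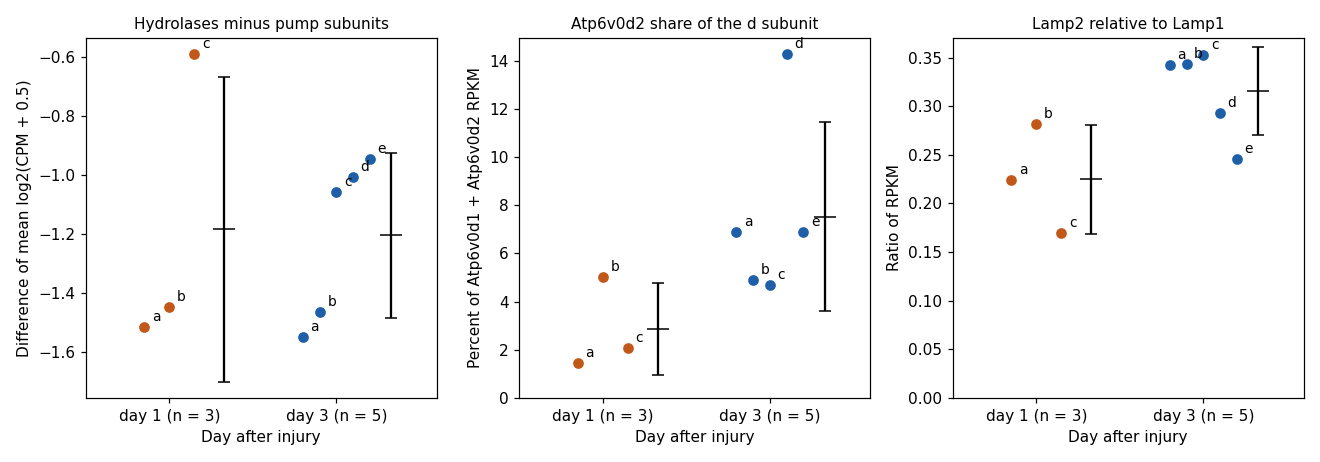
Measures per library by day after injury: hydrolases minus pump subunits in mean log2(CPM + 0.5), the share of Atp6v0d2 in the d subunit RPKM (percent), and the ratio of Lamp2 to Lamp1 RPKM. Points are libraries named by letter, and the bars show mean ± SD (n = 3 and 5). Day 1 c is highest in the first panel, day 3 d is highest in the middle panel at 14.3%, and day 3 e is the lowest day 3 library in the last.

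Day 1 c stood apart from the other libraries in these genes. It was the highest of all 8 libraries in 11 of the 34 and the lowest in 12, against 8 and 6 for day 1 a. Such counts were not made over all genes tested. The deviations of day 1 c followed the GC content of the transcripts. Over the 34 genes, the log2 level there minus the mean of the 8 libraries had a Pearson correlation of 0.724 with GC percent (Spearman 0.714). In the other 7 libraries that correlation lay between -0.582 and 0.370. The points share the same libraries and the mean that holds day 1 c itself, so this is a description. Naglu, Gaa and Tfeb, each with over 59% GC, were 1.83, 1.40 and 1.96 log2 units above the mean there, and Lipa and Atp6v0d2, both near 42% GC, were 1.38 and 1.23 below it. Not every gene followed this relation. In day 1 c, Atp6v1h (37.6% GC) was at 0.04, Atp6v1f (53.35% GC) at -0.43 and Tfe3 (52.1% GC) at 1.77. The relation held as well over the 6840 genes whose average log2 CPM was 3 or more, with a correlation of 0.392 and median deviations of -0.31 in the lowest GC quartile and 0.45 in the highest. The hydrolases had a median GC of 52.2% and the pump subunits of 48.2%. Summed neutrophil markers were also highest in day 1 c (3777 CPM), and nearly as high in day 3 b (3632 CPM), where hydrolases minus pump was -1.47.

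With GC content taken out of each library as an offset, a step chosen after day 1 c had been seen to stand apart, edgeR called 7 genes (0.0455%) and none of the 34. There were 7 of the 34 at an unadjusted p under 0.05, against 15.3% of all genes. The lowest adjusted p among them were 0.0796 for Hexa (log2 fold change 0.71 ± 0.15), 0.0818 for Atp6v1h (-0.79 ± 0.20) and 0.089 for Asah1 (0.55 ± 0.14). Under the same offset Grn stood at -0.44 ± 0.18 and Atp6v0d2 at 1.17 ± 0.45. The day difference in hydrolases minus pump was 0.072. Day 1 c also had the lowest share of even low counts (73.0%, against 81.3% to 86.0% in the other libraries). How much of day 1 c reflects GC content, the cells in that pool or other features of the library was not tested.

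**Figure D4:**
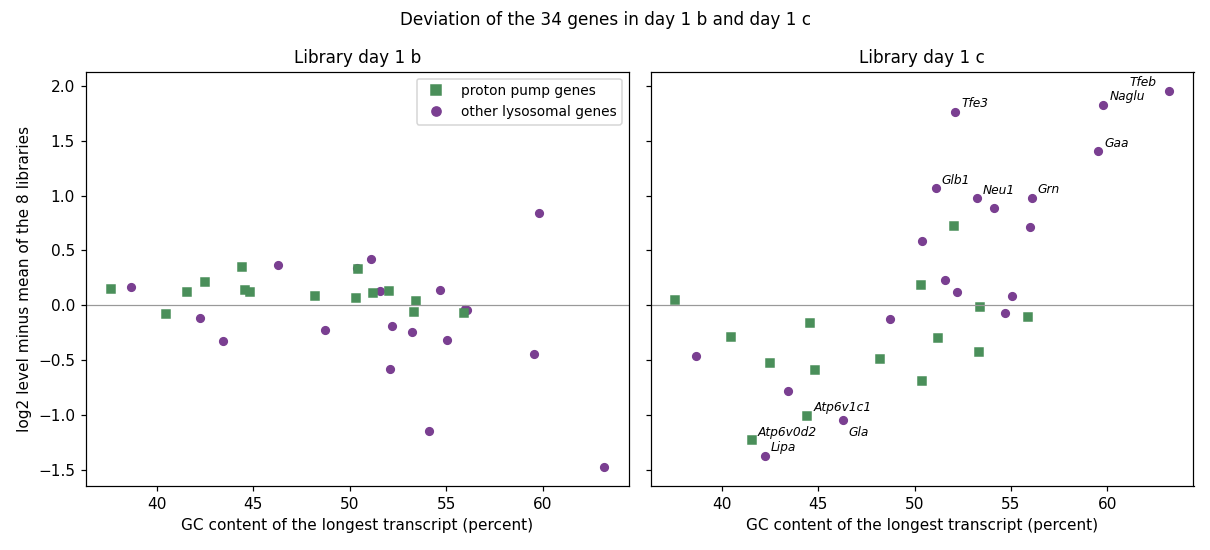
Deviation of each of the 34 genes (log2 level minus the mean of the 8 libraries) against the GC percent of its longest transcript, in day 1 b and in day 1 c. Green squares are proton pump genes and purple points the other lysosomal genes. In day 1 c the GC-rich Naglu, Gaa and Tfeb lie above 0 and the GC-poor Lipa and Atp6v0d2 below it.

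Of other genes of the lysosome, in 5 further lists, none was called by edgeR, against 0.013% of all genes tested. DESeq2 called 2 higher and 2 lower of 31 other hydrolases, and 1 higher and 3 lower of 26 membrane and transport genes tested. It also called 2 lower of 9 sorting genes, 2 higher of 16 in the TFEB family list and none of 13 pump genes. The share of all genes called by DESeq2 was 6.64%. The limma voom test called 2 higher and 1 lower of the other hydrolases. It called 1 lower in each of the membrane and the sorting lists. The share of all genes called by limma voom was 5.37%. Of 31 other hydrolases, 5 were higher and 3 lower at an unadjusted p under 0.05 (25.8% in all, against 15.7% of all genes tested). Their median log2 fold change was 0.063. Their most abundant genes were Ctsa, which shields Neu1 and Glb1 in a complex, at 1207 ± 199 and 1261 ± 180.2 CPM, and Smpdl3a, a phosphodiesterase, at 244 ± 75.2 and 369 ± 56.8 CPM. Hyal2, a hyaluronidase, was the only gene of these 5 lists called under the stricter filter (adjusted p = 0.0459). It was at 50.4, 37.7 and 32.4 CPM at day 1 and 11.9, 17.0, 14.6, 19.2 and 17.5 CPM at day 3. All of day 3 lay below day 1, as in 8.76% of all genes tested. The log2 fold change of Hyal2 in the main test was -1.32 ± 0.26 (edgeR, adjusted p = 0.0766, with 0.000433 to 0.52 over 19 alternatives).

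In the counts below at that unadjusted p, the share of all genes tested was 15.7%. Of 13 tested genes among 18 other pump subunits and assembly factors, none was higher and 2 were lower (15.4%, median -0.18). These were also the most abundant of the list: Tcirg1, the a3 subunit of lysosomes and osteoclasts, at 188 ± 70.2 and 99.7 ± 42.2 CPM (-0.92 ± 0.36, adjusted p = 0.252), and Ccdc115, an assembly factor, at 69.0 ± 14.9 and 48.3 ± 8.57 CPM. Of 26 tested membrane and transport genes, 2 were higher and 4 lower (23.1% in all, median -0.26). Cd68 was at 3168 ± 1237 and 3697 ± 429 CPM and Npc2, which carries cholesterol out of the lysosome, at 2779 ± 585 and 2190 ± 154 CPM. Of 9 genes that tag or sort hydrolases by mannose 6-phosphate, none was higher and 3 were lower (33.3%, median -0.55). These 3 were the adaptors Gga1, Gga2 and Gga3, named after their values were seen. Gga1 was at 2.57, 10.1 and 79.5 CPM at day 1 and 4.48, 2.97, 2.44, 4.18 and 7.18 CPM at day 3, so day 1 c stood high and day 1 a lay inside the day 3 range. Its log2 fold change was -2.85 ± 0.88 (edgeR, adjusted p = 0.14) and -0.59 without day 1 c (adjusted p = 0.766). Gga2 and Gga3 had log2 fold changes of -1.14 ± 0.39 and -1.59 ± 0.38 (edgeR, adjusted p = 0.181 and 0.0829). In both, all of day 3 lay below day 1, as in 8.76% of all genes tested. M6pr, a receptor for the tag, was at 694.5 ± 114.5 and 644 ± 88.2 CPM, and Nagpa, which uncovers the tag, at 30.2 ± 20.5 and 20.7 ± 7.77 CPM. Of 16 genes of the TFEB family and of nutrient sensing at the lysosome, 3 were higher and 2 lower (31.25% in all, median 0.17). Lamtor5 and Lamtor2, parts of the Ragulator complex, were at 115 ± 21.2 and 166 ± 24.6 CPM and at 109 ± 36.6 and 183 ± 22.0 CPM. For both, all of day 3 lay above day 1, as in 5.31% of all genes tested.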

How the data were processed

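Bulk RNA-seq of bead-selected wound macrophages was used, with 3 day 1 and 5 day 3 libraries. The authors deposited raw counts per gene, with exon length as another column. Per the file headers, they came from featureCounts 1.6.0 on Ensembl release 106 (GRCm39), run without options for strand, read pairs or reads of several positions. Trimmomatic and DESeq2 are named without versions in the submitters' processing notes. The aligner was not given in the sources used here. Low counts were mostly even, so counts may hold both reads of a pair, and halved counts were tried. Of counts from 2 to 20, 73.0% were even in day 1 c and 81.3% to 86.0% in the other libraries. A floor of 3 counts equals 0.0498 to 0.0722 CPM, for counting error only. The letters of the alignments named in the header differ in part from those of the columns, so letters only name libraries here.

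Genes were filtered with filterByExpr (minimum count 10), scaled by TMM and compared by the two-sided quasi-likelihood F test of edgeR. Its p-values were adjusted by Benjamini-Hochberg over all genes tested. Intervals use the 95% level and the SE of the log2 fold change. The 34 genes and the lists were chosen with earlier results of these data known. All 34 are named. Of each further lysosomal list, the 2 most abundant genes by RPKM are named and those called in the main test or under the stricter filter. Of each marker list the 2 most abundant are named, the values being given mainly as sums, and those called. Alternatives were DESeq2, limma voom, other scalings and filters, halved counts, a threshold of 0.1, each library left out, a letter block, other measures of hydrolases against pump, a GC offset (lowess, span 0.3, on GENCODE M21 transcripts), and the stricter filter with each library left out. The last 2 were chosen after seeing the data. Fits were tested on simulated data. There edgeR recovered the size of the changes and made few false calls, but it called fewer of the large changes than first required, so that requirement was lowered, and it called few of the small ones. DESeq2 called more of both and made more false calls. Small differences can therefore be missed by the main test. Tools were matplotlib 3.10.9, scipy 1.17.1, pandas 2.3.3, numpy 2.4.6 and Python 3.11.15, and, for the fits, DESeq2 1.42.0, limma 3.58.1, edgeR 4.0.16 and R 4.3.3.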

Additional observations from a re-analysis of the deposited data

Results flagged for a closer look

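In the 5 day 3 libraries, 1 library lay far from the others in 5 of the 45 genes looked at (3 of them among the 34), by a gap of over 0.71 of the whole range. Chance alone sets apart about 1 in 20 independent groups of this size with normal spread. The genes here share the same 5 libraries, so their count cannot be tested against that share. Lamp1 was at 1325 CPM in day 3 e against 935 to 1020 CPM in the other 4, which is the library that made Lamp1 overlap with day 1. Mcoln1 was at 23.8 CPM in day 3 c against 37.7 to 40.8 CPM. Atp6v0d2 was at 80.3 CPM in day 3 d against 27.7 to 42.2 CPM. Ccdc115 was at 63.5 CPM in day 3 e against 43.1 to 45.9 CPM, and Lamtor5 at 209 CPM in day 3 a against 148 to 164 CPM. With 3 libraries, day 1 was not examined in this way.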

How the results depend on the processing

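Of 645 values of the 34 genes under alternatives, 594 kept their direction and their side of the threshold, 5 passed it where the main test did not (those of Asah1, Grn and Atp6v0d2 given above), and 46, in 16 genes, changed sign. None of the values that changed sign passed the threshold, and the cause was not tested. The number of genes called was 2 in the main test, and 1021 with DESeq2, 825 with limma voom, 1347 without a filter, 146 with the stricter filter, 46 with halved counts, 7 with the GC offset and 735 at a threshold of 0.1. It ran from 0 to 59 when 1 library was left out: 59 without day 1 b, 31 without day 3 b, 1 without day 1 c, and 0 without each of the others. The number of the 34 called was 0 except for 1 with DESeq2, 1 with limma voom and 3 without a filter, and it was 0 with each library left out. Under the stricter filter without day 1 b, Atp6v0d2 (1.91 ± 0.44, adjusted p = 0.0451) and Neu1 (-0.88 ± 0.21, adjusted p = 0.0499) were called, and none of the 34 in the other 7 such fits. Hydrolases minus pump differed between the days by -0.19 to 0.28 over libraries left out. That difference, -0.020 in the main measure, was 0.082 without Atp6v0d2, 0.072 with the GC offset and -0.17 over letters a to c. Its sign was therefore not settled. As the log2 ratio of RPKM sums it was 0.235, and day 3 b lay inside the day 1 range of that ratio. The pooled SD between libraries of a day was 0.376 for the main measure and was not computed for the others.

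The letters are not said to pair the days, and correlations as weak as those seen cannot decide it. Same-letter deviations correlated by 0.0857, 0.0267 and 0.000606 for a, b and c. Day 1 a correlated best with its own letter. Day 1 b correlated better with day 3 a (0.0387), and day 1 c with day 3 e (0.105), than with their own letters. Over letters a to c, 0 genes were called with the letter as a replicate block and 0 without the block. With the block, the log2 fold changes of Gusb (-0.0032), Atp6v1a (0.12), Atp6v1b2 (0.0034), Atp6v1c1 (0.081), Atp6v1d (0.091), Ctsa (-0.063) and M6pr (0.013) changed sign. Without the block on the same 6 libraries, those of Gusb (-0.0074), Man2b1 (-0.031), Atp6v1a (0.12), Atp6v1d (0.063), Ctsa (-0.073) and M6pr (0.0082) did.

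With the GC offset the values that changed sign were Lamp2 (-0.015), Laptm5 (0.098), Mcoln1 (0.027), Psap (0.11) and Atp6ap2 (-0.065). Atp6v1a, at -0.0016 in the main test, was 0.0010 with DESeq2 and with RLE scaling, 0.0052 with library totals, 0.0055 with TMM without abundant genes, 0.023 without a filter, 0.029 with the stricter filter and 0.011 with halved counts. Atp6v1b2 was 0.0034 with limma voom. Leaving out 1 library turned the sign of these genes, whose log2 fold changes then ranged from -0.042 to 0.27 (Lamp2), -0.46 to 0.19 (Laptm5), -0.44 to 0.25 (Mcoln1), -0.28 to 0.27 (Gla), -0.18 to 0.97 (Man2b1), -1.37 to 0.15 (Naglu), -1.62 to 0.16 (Tfeb), -1.16 to 0.62 (Tfe3), -0.078 to 0.077 (Atp6v1a), -0.35 to 0.081 (Atp6v1b2), -0.59 to 0.15 (Atp6v1c1), -0.28 to 0.10 (Atp6v1d), -0.018 to 0.19 (Atp6ap1), -0.079 to 0.19 (Atp6ap2), -0.068 to 0.14 (Ctsa), -0.059 to 0.46 (Cd68) and -0.94 to 0.13 (Nagpa). With 3 day 1 libraries the intervals were wide, so differences below those intervals were not detectable here.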
